A study of Mus musculus with 16 samples.

Results

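Foxc1, Foxc2, Foxd1, Foxd2, Foxf1 and Foxf2 are 6 of the 45 forkhead genes among the 26411 genes counted by RNA sequencing in whole mouse embryos at E9.5. They were taken by gene symbol, and all 6 were among the 15679 genes with enough counts to be tested. The set was chosen by the Foxc2 mRNA level of these embryos, which stayed low in both genotypes that lack Kat6a. The Foxc2 values in comparisons involving embryos without Kat6a are therefore a description and carry no test. The other 5 genes were tested in every comparison, and Foxc2 was tested only for the effect of the Kat6b transgene in embryos with Kat6a.

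The 16 embryos fell into 4 genotypes of 4 embryos, each with 2 females and 2 males. Kat6a+/+Kat6b+/+ embryos were the wild type. Kat6a-/-Kat6b+/+ embryos carried a germline null allele of Kat6a, a histone acetyltransferase gene, in which several exons are deleted. Kat6a+/+Tg(Kat6b) embryos had Kat6a and a transgene made from a bacterial artificial chromosome, which adds copies of the related gene Kat6b with its own surrounding sequence. Kat6a-/-Tg(Kat6b) embryos had both the null allele and the transgene. All were on a hybrid background of the FVB and BALB/c strains. Below, Kat6a-/-Kat6b+/+ embryos are called null, Kat6a+/+Tg(Kat6b) embryos transgenic and Kat6a-/-Tg(Kat6b) embryos null transgenic. The comparisons asked which mRNA levels change on loss of Kat6a and whether additional Kat6b alters that change. The null transgenic embryos came from litters 483 and 498, which held no other genotype here, so litter and genotype cannot be told apart in their comparisons. The wild-type embryos, by contrast, came 1 each from the litters 801 and 803, which gave the null embryos, and the litters 2597 and 2598, which gave the transgenic embryos.

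Reads counted on genes totalled 14407277 to 45665680 per embryo. Kat6b stood at 46.2 ± 2.45 CPM (reads counted on the gene, scaled to library size by TMM; mean ± SD, n = 4) in wild-type embryos and 49.1 ± 2.03 CPM in null embryos. It stood at 192 ± 29.7 and 197 ± 4.92 CPM in transgenic and null transgenic embryos. Kat6a counts over the whole gene were 199 ± 16.5 CPM in the wild type and 202 ± 15.2 CPM in null embryos, and whole-gene counts cannot check the deletion of part of a gene. Sex labels matched the level of Xist, the only sex-linked transcript examined, in all 16 libraries. Of 6 markers of placenta and decidua, up to 3 were at 0 in an embryo in each genotype. The 6 summed to 1080 to 1260 CPM in wild-type and 1090 to 1230 CPM in null embryos. They summed to 913 to 1140 CPM in transgenic and 1240 to 1370 CPM in null transgenic embryos, which did not overlap. Because RNA came from whole embryos, fewer cells of a type and less RNA per cell cannot be told apart.

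Forkhead proteins bind DNA through a shared winged-helix domain, and the Foxc, Foxd and Foxf pairs each mark parts of the embryonic mesoderm. Foxc1 and Foxc2 act together in somites, head mesenchyme, the pharyngeal arch arteries and the kidney field. Foxd1 is a gene of kidney stroma and of the ventrotemporal retina, and Foxd2 is expressed in somite, kidney and head mesenchyme. Foxf1 and Foxf2 are targets of hedgehog signals in splanchnic mesoderm around the gut, and Foxf1 is also needed in the allantois and yolk sac.

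The 6 genes lie in 4 places of the GRCm39 genome. Foxf1 (chr8:121811074-121814883, plus strand) and Foxc2 (chr8:121842910-121845634, plus strand) are separated by 28.0 kb, and both lie 98.4 Mb from Kat6a on the same chromosome. Foxf2 (chr13:31809663-31816393, plus strand) and Foxc1 (chr13:31990616-31996459, plus strand) are separated by 174.2 kb, so each of these clusters holds a Foxf gene and a Foxc gene. Foxd1 (chr13:98490750-98495813, plus strand) and Foxd2 (chr4:114763479-114766070, minus strand) stand apart. The canonical transcript has 1 exon for both Foxc and both Foxd genes, and 2 exons for both Foxf genes. Exons on the opposite strand overlap 3.97% of the exon bases of Foxf1 and 6.02% of those of Foxf2. The strand setting of the counting is not given in the sources used here, so reads from these overlaps could fall on either gene.

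RefSeq promoter sequences (GRCm38.p6) were found for 4 of the 6 genes, Foxc1, Foxd1, Foxd2 and Foxf2. The 250 bases before the start are shown for Foxd1, the gene that passed the test in 1 comparison, and for Foxf2, the tested member with the largest fitted difference upon loss of Kat6a. Capitals mark each GC box, read as GGGCGG on either strand.
Foxd1 (chr13:98353995-98354244, plus strand): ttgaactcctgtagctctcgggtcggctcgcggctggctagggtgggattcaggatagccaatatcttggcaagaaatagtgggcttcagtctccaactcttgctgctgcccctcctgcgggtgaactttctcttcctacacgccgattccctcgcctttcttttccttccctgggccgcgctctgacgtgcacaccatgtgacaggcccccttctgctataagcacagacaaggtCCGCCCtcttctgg
Foxf2 (chr13:31625566-31625815, plus strand): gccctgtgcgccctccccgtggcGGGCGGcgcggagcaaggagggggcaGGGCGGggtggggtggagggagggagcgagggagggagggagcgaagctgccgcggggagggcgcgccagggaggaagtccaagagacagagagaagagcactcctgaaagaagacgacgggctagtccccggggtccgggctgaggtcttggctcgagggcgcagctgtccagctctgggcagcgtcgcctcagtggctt
The Foxd1 stretch was 57.2% G and C, with 1 GC box 14 bases before the start and 1 CCAAT box. The Foxf2 stretch was 71.6% G and C, with 2 GC boxes at 227 and 201 bases before the start and no CCAAT box. Searching both strands, the letters GGGCGG were found in 32.7% and CCAAT in 33.8% of 32851 promoters of the same length, whose median G and C content was 52.4%. None of the 4 promoters held TATAAA, which 12.4% of all promoters did. These matches describe letters only.

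Per kilobase of listed gene length, the order of the 6 genes was the same by mean level in all 4 genotypes. In wild-type embryos Foxd1 stood highest, at 26.9 ± 1.26 RPKM (reads scaled to library size and gene length; SD, n = 4). It was followed by Foxc1 at 20.7 ± 0.868 RPKM, Foxc2 at 17.0 ± 1.06 RPKM and Foxf1 at 9.79 ± 0.954 RPKM. Foxd2, at 6.82 ± 0.541 RPKM, and Foxf2, at 6.08 ± 0.464 RPKM, overlapped in range and were the only neighbours in this order that did so in the wild type.

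Foxc2 is known for its part in aortic arch, somite and lymphatic development. In the order of replicates 1 to 4, which is kept throughout, the wild-type embryos held 44.8, 50.6, 46.0 and 44.2 CPM of Foxc2 mRNA, and the transgenic embryos 51.0, 45.9, 51.1 and 46.5 CPM. The null embryos held 42.4, 38.9, 34.9 and 38.0 CPM, and the null transgenic embryos 37.7, 44.9, 36.7 and 43.8 CPM. The null embryos lay below every embryo with Kat6a. The null transgenic embryos lay below every transgenic embryo but overlapped the wild type, since their highest embryo, at 44.9 CPM, was above the lowest wild-type embryos.

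These values, which selected the set, corresponded to means of 46.4 ± 2.89 CPM in the wild type and 38.5 ± 3.09 CPM in null embryos (SD, n = 4 each). The fitted log2 fold change was -0.28, or 0.825-fold. In null transgenic embryos the mean was 40.8 ± 4.18 CPM, and the fitted log2 fold change vs. wild type was -0.26, against -0.19 from the unadjusted means. With no surrogate variable in the fit (a covariate estimated from the data to take up variation other than genotype) it was -0.18. Between both null genotypes the fitted difference in Foxc2 was 0.02 on the log2 scale. The transgene alone, which the selection did not use, gave a Foxc2 log2 fold change of 0.09 (95% interval -0.02 to 0.21, edgeR FDR = 0.536), with overlapping groups.

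**Figure D1:**
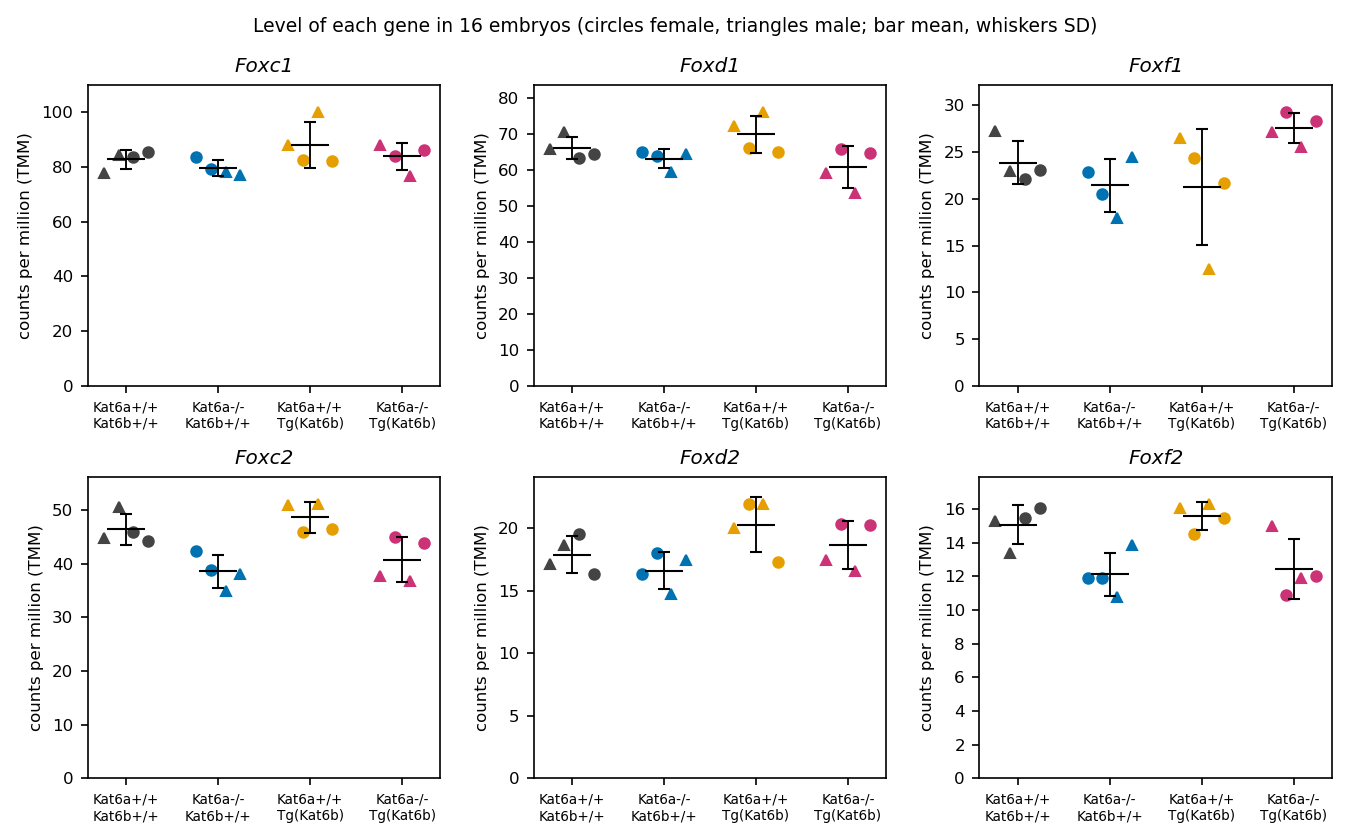
TMM-normalised CPM of each of the 6 genes in each embryo, by genotype, with circles for females and triangles for males; bars are means and whiskers SD over 4 embryos, and each vertical axis starts at 0. The Foxc2 points of null embryos (34.9 to 42.4 CPM) lie below all wild-type points, and 1 Foxf1 point of transgenic embryos (12.5 CPM) lies far below the others.

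Among embryos without Kat6a, the Foxc2 values of the males lay below those of the females. The null transgenic females held 43.8 and 44.9 CPM beside 44.2 and 46.0 CPM in wild-type females, whereas the males held 36.7 and 37.7 CPM beside 44.8 and 50.6 CPM in wild-type males. In null embryos the females held 38.9 and 42.4 CPM and the males 34.9 and 38.0 CPM. These null females were both of litter 801 and the males both of litter 803, while the wild-type males were of litters 801 and 803 and the wild-type females of litters 2597 and 2598, so sex and litter cannot be told apart in these groups. The low Foxc2 level in null transgenic embryos lay mainly in the 2 males, both of litter 483, with a fitted log2 fold change of -0.35 among males and -0.03 among females. A female of the same litter stood at 44.9 CPM.

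Foxc1 is the closest relative of Foxc2 and is expressed in much the same mesoderm. It ranged from 77.7 to 85.4 CPM in wild-type, from 77.0 to 83.7 CPM in null, from 82.1 to 100 CPM in transgenic and from 76.7 to 88.1 CPM in null transgenic embryos. All 4 genotypes overlapped. The log2 fold change of Foxc1 vs. wild type was -0.06 in null embryos (95% interval -0.19 to 0.07, edgeR FDR = 0.690) and 0.02 in null transgenic embryos (95% interval -0.11 to 0.15, edgeR FDR = 0.933). The ratio of Foxc2 to Foxc1, each as RPKM, was 0.821 ± 0.0513 in the wild type and 0.810 ± 0.0455 with the transgene alone. It was 0.709 ± 0.0386 in null embryos and 0.713 ± 0.0674 in null transgenic embryos (SD, n = 4 each). The highest ratio in null embryos, 0.741, was under the lowest in the wild type, 0.758, while that in null transgenic embryos, 0.783, was not. As Foxc2 chose the set, these ratios are a description too.

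Upon loss of Kat6a, 0 of the 5 tested genes passed edgeR's quasi-likelihood test at an FDR of 0.05, beside 1.88% of all tested genes. Foxf2 had the largest fitted difference of the 5, and it was the only 1 of the 5 with an unadjusted p under 0.05. DESeq2 and limma-voom also called 0 of the 5. The median log2 fold change of the 5 genes was -0.11, against 0.00 over all tested genes.

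Foxf2 is needed for palate, gut and cerebral vessel development. It stood at 15.3, 13.4, 15.5 and 16.1 CPM in wild-type embryos and at 11.9, 11.9, 10.8 and 13.9 CPM in null embryos. In null transgenic embryos it stood at 15, 10.9, 11.9 and 12 CPM. A single null embryo, at 13.9 CPM, overlapped the wild type, and so did a single null transgenic embryo, at 15 CPM. The log2 fold change of Foxf2 was -0.29 (SE 0.09, 95% interval -0.48 to -0.10) in null embryos vs. wild type, with an edgeR FDR of 0.107. In null transgenic embryos it was -0.20 (95% interval -0.40 to -0.01, edgeR FDR = 0.377). Neither passed the threshold, and both comparisons share the wild-type embryos. With litter as a block among the 12 embryos of the other 3 genotypes, the value in null embryos was -0.23 (edgeR FDR = 0.678). Among females alone the log2 fold change was -0.40 in null embryos (edgeR FDR = 0.0343) and -0.45 in null transgenic embryos (edgeR FDR = 0.0111). Each value came from 2 embryos against 2 of other litters, so litter and genotype cannot be told apart among the females. In females 902 and 1520 of 15686 genes were called in these comparisons, against 295 and 105 of 15679 in all embryos. The test of the difference between the sexes gave edgeR FDR values of 0.713 and 0.339.

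In null transgenic vs. wild-type embryos, 0 of the 5 tested genes passed, beside 0.670% of all tested genes. Foxd1 and Foxf2, 2 of the 5, had an unadjusted p under 0.05, and DESeq2 and limma-voom called 0. The median log2 fold change of all 5 tested genes was 0.02.

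**Figure D2:**
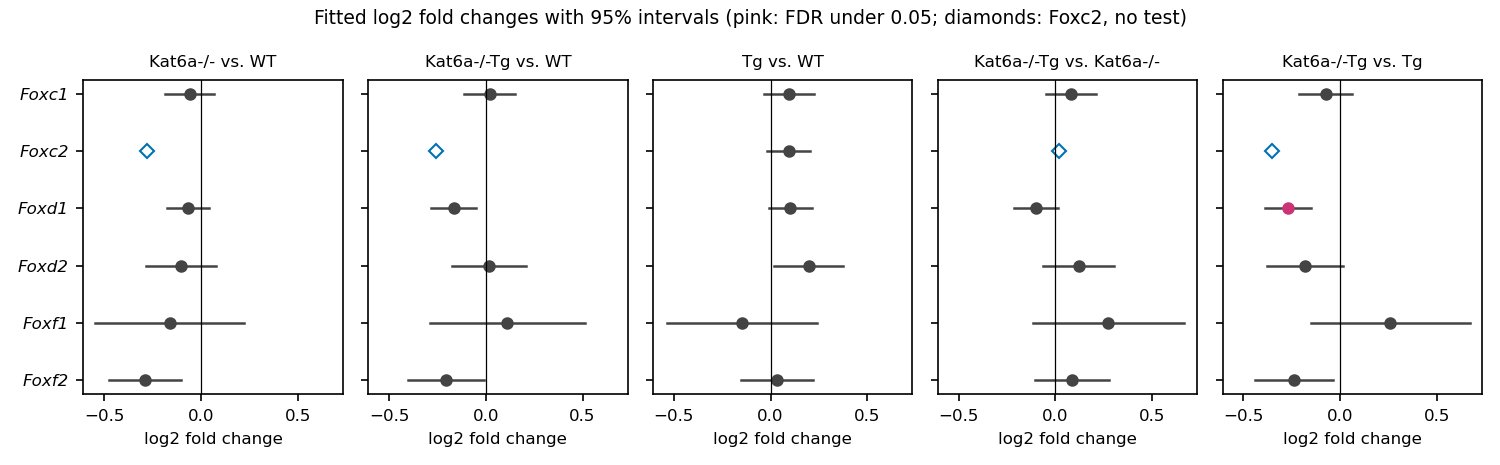
Fitted log2 fold change of each gene in the 5 pairwise comparisons (horizontal axis) with its 95% interval as a line, where WT is the wild type and Tg stands for Tg(Kat6b). Foxd1 in null transgenic vs. transgenic embryos, at -0.27, is the only point with an FDR under 0.05, and Foxc2 is drawn as an open diamond without an interval where it was not tested.

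Foxd1 was the only tested member to pass in any comparison. The transgenic embryos held 72.2, 66.2, 76.2 and 65.1 CPM, and the null transgenic embryos 59.1, 66.0, 53.6 and 64.9 CPM. The groups overlapped, with 66.0 CPM in a null transgenic female above 65.1 CPM in a transgenic female. The fitted log2 fold change was -0.27 (SE 0.058, 95% interval -0.39 to -0.15, edgeR FDR = 0.0148), against -0.20 from the unadjusted means. This made 1 of 5 tested members called, and 3.41% of all tested genes were called in this comparison; DESeq2 and limma-voom called 1 too.

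Foxd1 values differed more among males. In males the transgene embryos with Kat6a held 72.2 and 76.2 CPM and those without held 59.1 and 53.6 CPM. In females the log2 fold change was -0.003 (edgeR FDR = 0.981), and in males -0.40 (edgeR FDR = 0.0654). The difference between male and female log2 fold changes was -0.39 (edgeR FDR = 0.299), which did not pass. The call was also lost without any surrogate variable (-0.20, edgeR FDR = 0.0874), without null transgenic replicate 3 (-0.20, edgeR FDR = 0.102) and, with a fold change close to that of all embryos, without replicate 1 (-0.25, edgeR FDR = 0.0607). Markers of whole tissues differed between these genotypes too. The summed level of 4 neural tube markers was 240 to 256 CPM in null transgenic and 271 to 301 CPM in transgenic embryos, and that of 4 paraxial mesoderm markers 134 to 146 CPM and 151 to 157 CPM, with none of the 8 markers at 0. Their part in the Foxd1 difference was not tested.

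The wild-type embryos held 66.0, 70.5, 63.5 and 64.5 CPM of Foxd1, and the null embryos 65.0, 64.0, 59.4 and 64.4 CPM. These groups overlapped, and the log2 fold change of Foxd1 on loss of Kat6a was -0.07 (95% interval -0.18 to 0.04, edgeR FDR = 0.574). In null transgenic vs. wild-type embryos it was -0.17 (95% interval -0.28 to -0.05, edgeR FDR = 0.199), but 0.04 among females (edgeR FDR = 0.758) and -0.27 among males (edgeR FDR = 0.415). The interaction, in which the effect of losing Kat6a in transgene embryos is set against that without the transgene, was -0.20 for Foxd1 (edgeR FDR = 0.245). In the interaction, 0 of the 5 tested members passed with edgeR, DESeq2 or limma-voom, Foxd1 alone had an unadjusted p under 0.05, and 0.153% of all tested genes were called.

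Foxd2, the relative of Foxd1, ranged from 16.3 to 19.5 CPM in wild-type, from 14.7 to 18 CPM in null, from 17.3 to 21.9 CPM in transgenic and from 16.6 to 20.3 CPM in null transgenic embryos. All 4 ranges overlapped. With the transgene alone its log2 fold change was 0.20 (95% interval 0.02 to 0.38, edgeR FDR = 0.377), the only 1 of the 6 with an unadjusted p under 0.05 there. In that comparison 0 of the 6 genes passed with edgeR, DESeq2 or limma-voom, and 0.140% of all tested genes were called. The median log2 fold change of the 6 genes with the transgene alone was 0.09, against 0.00 over all tested genes.

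Foxf1 was the most variable of the 6. The wild-type embryos held 27.3, 23.0, 22.1 and 23.1 CPM and the null embryos 22.9, 20.5, 18 and 24.5 CPM. The transgenic embryos held 26.5, 24.4, 12.5 and 21.7 CPM, and the null transgenic embryos 27.1, 29.3, 25.6 and 28.3 CPM. All null transgenic embryos lay above all null embryos, and replicate 3 with the transgene alone lay below all the rest. The SD of Foxf1 within genotypes was 0.275 on the log2 scale, at percentile 97.8 of 4411 genes of like level, whose median SD was 0.103. The SDs of the other members lay between percentiles 61.0 and 78.0 of genes at their levels.

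In null transgenic vs. null embryos, 7.14% of all tested genes were called and 0 of the 5 tested members, by edgeR, DESeq2 and limma-voom alike, with 0 at an unadjusted p under 0.05. The log2 fold change of Foxf1 was 0.27 (SE 0.178, 95% interval -0.12 to 0.66, edgeR FDR = 0.395). When only the 8 embryos compared were fitted it was 0.36 (edgeR FDR = 0.00569), and 2356 of 15487 genes were called. The fit of all embryos called 1119 of 15679. Without transgenic replicate 3, an embryo outside this comparison that adds to the shared estimate of spread, the Foxf1 value was 0.31 (edgeR FDR = 0.0289). The interaction for Foxf1 was 0.42 (95% interval -0.14 to 0.98, edgeR FDR = 0.466). The ratio of Foxf1 to Foxf2, each as RPKM, was 2.29 ± 0.377 in null transgenic embryos and 1.80 ± 0.109 in null embryos (SD, n = 4 each).

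Markers of tissues that attach to the embryo differed between genotypes as well. The summed level of 4 allantois markers, Foxf1 itself among them, was 67.1 to 76.9 CPM in wild-type, 60.5 to 68.5 CPM in null and 81.8 to 86.4 CPM in null transgenic embryos. It was 54.2 to 84.1 CPM in transgenic embryos, lowest in the same replicate 3, which also had the lowest Wnt2 of the 16 embryos, at 3.96 CPM. Without Foxf1 the sum of the other 3 was 53.4 to 60.8 CPM in null transgenic and 42.5 to 47.3 CPM in null embryos, which did not overlap. It was 44 to 53.8 CPM in the wild type, which overlapped the null transgenic embryos, and 41.7 to 57.6 CPM in transgenic embryos. The summed level of 7 yolk sac and visceral endoderm markers was 16.8 to 23.1 CPM in null and 43.7 to 60.1 CPM in null transgenic embryos, with 18.4 to 62.1 CPM in the wild type and 7.17 to 55.3 CPM with the transgene alone. At most 1 of these 7 markers was at 0 in an embryo, and none of the allantois markers was. Tissues of the embryo itself differed in transgenic replicate 3 too. The summed level of 4 heart markers was 230 CPM there, against 351 to 413 CPM in the other transgenic embryos. The neural tube sum of that replicate was the highest of the transgenic embryos, at 301 CPM, and its paraxial mesoderm sum was 154 CPM. The part of these tissues in the Foxf1 values was not tested.

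Foxf1 and Foxc2 share a cluster with Fendrr, a long noncoding RNA that starts 1.2 kb from Foxf1 on the other strand, Mthfsd, and Foxl1, a forkhead gene of gut mesenchyme 9.0 kb beyond Foxc2. Foxl1 ranged from 5.08 to 5.72 CPM in wild-type and from 5.19 to 6.20 CPM in transgenic embryos. It ranged from 3.6 to 4.43 CPM in null and from 4.23 to 4.69 CPM in null transgenic embryos. Every embryo without Kat6a was thus lower in Foxl1 than every embryo with Kat6a. The log2 fold change of Foxl1 vs. wild type was -0.44 (SE 0.114, edgeR FDR = 0.0497) in null embryos, a call made in 4 of 29 other settings and by neither DESeq2 nor limma-voom. It was -0.34 (edgeR FDR = 0.223) in null transgenic embryos, where the difference did not pass, and the transgene alone gave 0.07 (edgeR FDR = 0.876).

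Mthfsd, which lies between Foxf1 and Foxc2, gave 0.04 (95% interval -0.09 to 0.17, edgeR FDR = 0.823) on loss of Kat6a. Fendrr was 5.00 ± 0.925 CPM in the wild type, 3.61 ± 0.275 CPM in null and 5.45 ± 0.486 CPM in null transgenic embryos (SD, n = 4 each). Its log2 fold change was -0.46 on loss of Kat6a (edgeR FDR = 0.201) and 0.50 between both null genotypes (edgeR FDR = 0.0819). Fendrr was also low, at 2.89 CPM, in the transgene embryo with the lowest Foxf1.

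**Figure D3:**
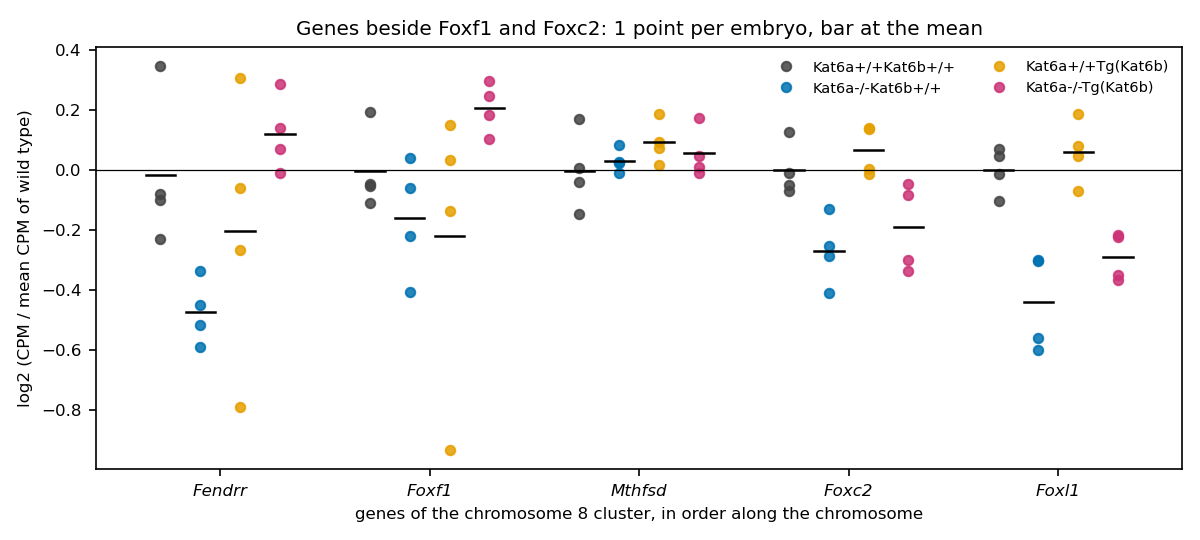
Log2 ratio of each embryo's CPM to the wild-type mean (vertical axis) for 5 genes in their order along the chromosome, coloured by genotype, with a bar at the mean. For Foxl1 all embryos without Kat6a (3.6 to 4.69 CPM) lie below all embryos with Kat6a, whereas Mthfsd shows no such separation.

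Within 100 kb of a member lay 16 other genes of the count files, of which 13 were tested. Foxl1 was the only 1 called on loss of Kat6a, and Btf3, a transcription and translation factor gene 37.2 kb from Foxd1, the only 1 called between both null genotypes (log2 fold change -0.18, edgeR FDR = 0.0159). In the other comparisons 0 were called by edgeR, DESeq2 or limma-voom, with 0 to 4 at an unadjusted p under 0.05. Foxe3, a lens gene 16.3 kb from Foxd2, gave -0.67 on loss of Kat6a with a wide interval (95% interval -1.18 to -0.16, edgeR FDR = 0.186), and Foxd2os, whose start lies 0.1 kb from that of Foxd2, gave -0.14 (edgeR FDR = 0.439).

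The count files held 39 further forkhead genes, of which 32 were tested. On loss of Kat6a their median log2 fold change was -0.05, against 0.00 over all genes, and 1.88% of all tested genes were called. DESeq2 called 3 and limma-voom 2 of the 32. With edgeR 4 of the 32 were downregulated and 0 upregulated. They were Foxl1, Foxe1, a thyroid and palate gene (-0.61, edgeR FDR = 0.0476), Foxl2, an ovary and eyelid gene (-0.48, edgeR FDR = 0.0272), and Foxd3, a neural crest gene (-0.46, edgeR FDR = 0.0392). Foxe1 was higher in null transgenic than in null embryos (0.60, edgeR FDR = 0.0257). In the remaining comparisons edgeR and limma-voom called 0 of the 32 and DESeq2 0 or 1, with 1 to 7 at an unadjusted p under 0.05.

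Genes of the tissues in which the 6 genes are known to act were described by list. In the paraxial mesoderm, where the Foxc genes act, 1 of 16 tested genes fell on loss of Kat6a, the sclerotome gene Uncx (-0.34, edgeR FDR = 0.0136). The list's median log2 fold change was -0.11. In the intermediate mesoderm and kidney list 4 of 12 fell, beside 1.88% of all tested genes called in either direction. DESeq2 called 4 and limma-voom 2 of the 12, and the list's median was -0.21. The 4 called by edgeR were the nephron progenitor genes Six2 (-0.70, edgeR FDR = 0.00066) and Sall1 (-0.20, edgeR FDR = 0.0474), and Lhx1 (-0.63, edgeR FDR = 0.0121) and Pax2 (-0.41, edgeR FDR = 0.044), which mark the nephric duct. All 4 genes are expressed in other tissues of the embryo too, so their levels in whole embryos are not specific to the kidney field.

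In the splanchnic and lateral plate list, where Foxf1 and Foxf2 act, 1 of 16 fell on loss of Kat6a, the stomach mesenchyme gene Barx1 (-1.01, edgeR FDR = 0.0144), and the median was -0.31. Levels in whole embryos do not show in which tissue a gene of this list changed. Between both null genotypes 7.14% of all tested genes were called. Of these 16, 7 were higher with the transgene, with a list median of 0.48. Hand1, a gene of heart and extraembryonic mesoderm, led them (1.16, edgeR FDR = 0.0151), followed by Osr2 (0.89, edgeR FDR = 0.0469), Barx1 (0.83, edgeR FDR = 0.0193) and Nkx2-3 (0.75, edgeR FDR = 0.0103). Osr2 rested on 6 to 24 counts in null and 14 to 43 in null transgenic embryos, and passed in 8 of 27 alternatives. The summed allantois and yolk sac markers given with Foxf1 separate these genotypes as well. Of the 13 hedgehog genes, the pathway upstream of the Foxf genes, edgeR and limma-voom called 0 on loss of Kat6a and 0 between both null genotypes, with medians of 0.04 and -0.08. At an unadjusted p under 0.05 there were 1 and 5, and DESeq2 called 1 and 0.

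In the arch artery and endothelium list, 1 of 24 fell on loss of Kat6a, the pharyngeal arch gene Tbx1 (-0.65, edgeR FDR = 4.29e-05). In the head and arch mesenchyme list 1 of 17 fell, the mesenchymal receptor gene Pdgfra (-0.24, edgeR FDR = 0.0112). Of these 17, 7 were higher in null transgenic than in null embryos, beside 7.14% of all tested genes called there. In the forebrain and eye list, which bears on Foxd1, 3 of 12 fell on loss of Kat6a, namely Lhx2 (-0.34, edgeR FDR = 0.00123), Six3 (-0.33, edgeR FDR = 0.0269) and Dlx2 (-0.31, edgeR FDR = 0.0474). DESeq2 called 3 and limma-voom 2 of these 12, and 1.88% of all tested genes were called. In null transgenic vs. wild-type embryos, 1 of the 110 tested genes of these 7 lists was called, beside 0.670% of all tested genes. It was the somite gene Meox1 (-0.19, edgeR FDR = 0.0239), which passed in 14 of 28 alternatives and kept its sign in 27. There limma-voom called 1 of the 110 and DESeq2 4, and 20 had an unadjusted p under 0.05. With the transgene alone edgeR and limma-voom called 0 of the 110 tested genes, DESeq2 3, and 25 had an unadjusted p under 0.05.

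In null transgenic vs. transgenic embryos, the comparison in which Foxd1 was called, 3.41% of all tested genes were called. Of 16 paraxial genes 3 were lower. They were Uncx (-0.30, edgeR FDR = 0.0341), the somite clock gene Lfng (-0.27, edgeR FDR = 0.0232) and Meox1 (-0.19, edgeR FDR = 0.0158), and the list's median was -0.19. In this order they passed in 14, 22 and 17 of 28 alternatives. The summed paraxial and neural tube markers, Meox1 among the former, were also lower in null transgenic embryos, as given with Foxd1, and their part in these changes was not tested. In the endothelial list Tbx1 was lower (-0.52, edgeR FDR = 0.00197) and 4 of 24 genes were higher, among them Itgb3 (0.45, edgeR FDR = 0.0108) and Nrp1 (0.30, edgeR FDR = 0.00197). Of the 12 forebrain and eye genes edgeR, DESeq2 and limma-voom called 0 in this comparison, with 1 at an unadjusted p under 0.05.

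Among the 6 genes, Foxd1 followed Foxc2 most closely over the 16 embryos. Likeness was measured as the root mean square difference of log2 CPM after each gene was centred on its mean, over 12943 genes whose mean log2 CPM was 1 or more. Foxd1 had the smallest difference of all these genes, at 0.0932, against a spread of Foxc2 itself of 0.168. Zic2 (0.0947), Lpar4 (0.0982), Caprin2 (0.1) and Timm21 (0.102) came next. Foxd2 and Foxc1 ranked 150 and 160, Foxf2 ranked 3857, and Foxf1, the genomic neighbour of Foxc2, ranked 12015. The measure also grows with a gene's own spread, which was widest for Foxf1 among the 6 genes, so these ranks do not reflect likeness alone. All points share libraries and scaling, and the order depended on the scale. With the surrogate variables removed Ntn1 was nearest at 0.0608, and Foxd1 ranked 11. Zic2, whose values are a description because it was picked for its likeness to Foxc2 in these same embryos, held 69 ± 3.61 CPM in wild-type, 57.5 ± 2.93 CPM in null and 64.1 ± 1.36 CPM in null transgenic embryos (SD, n = 4 each).

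**Figure D4:**
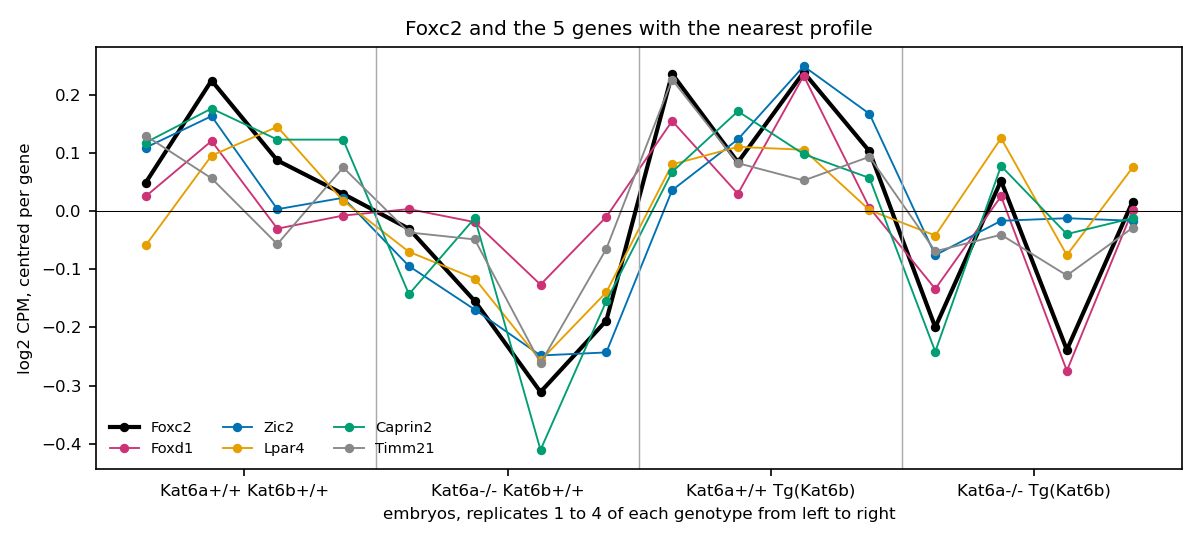
Log2 CPM, centred on each gene's mean, of Foxc2 (thick line) and the 5 genes with the smallest root mean square difference from it (0.0932 to 0.102) across the 16 embryos in genotype order. Foxd1 and Foxc2 are both low in null transgenic replicates 1 and 3, the males, and near their means in replicates 2 and 4.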

How the data were processed

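RNA from 16 whole embryos was sequenced by the authors, aligned to mm39 with Rsubread and deposited as unnormalised counts of reads per gene for each embryo; featureCounts and bcl2fastq are named in the submitters' processing notes. The annotation and strand setting are not given in the sources used here. Gene positions came from GENCODE for GRCm39 by symbol, where 25282 of 26411 genes matched.

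Genes were filtered with filterByExpr (minimum count 10, minimum total 15) and scaled by TMM. The robust quasi-likelihood test of edgeR 4.0.16 in R 4.3.3 was fitted to all 16 embryos, with 2 surrogate variables from sva 3.50.0 (log2 CPM, prior count 2, genotype protected). The first of them separated the sexes (0.180 to 0.297 in females, -0.278 to -0.218 in males). P-values were adjusted over 15679 genes by the Benjamini-Hochberg method, with a threshold of 0.05. RPKM used the listed gene lengths. The fit was tested on simulated data. Embryos are taken as replicates, and their counts differed by more than sampling noise (chi-square per degree of freedom 1.83 to 15.8). Totals of 14407277 to 45665680 counts per embryo give the shallower embryos less precision.

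The genes and lists were chosen with earlier results of these data known. Named genes were the 6 members, Kat6a and Kat6b, genes within 100 kb of a member, forkhead genes past the threshold, at most 4 genes with the largest change of each list, and the 5 genes nearest to Foxc2. Alternatives were other covariates, filters, scalings, DESeq2 1.42.0, limma 3.58.1, replicate or litter blocks and leaving out each embryo. Fits by sex, and the test between sexes, were added after seeing the data.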

Additional observations from a re-analysis of the deposited data

How the results depend on the processing

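The settings changed which members passed. With only the genotypes compared, 1 member (Foxf1) passed between both null genotypes and 0 passed in null transgenic vs. transgenic embryos. The former fit called 2356 of 15487 genes and the latter 346 of 15273, against 1119 and 535 of 15679 with all embryos fitted. In null transgenic vs. transgenic embryos 0 also passed with no or 1 surrogate variable, with sex as the covariate, or in males. These fits called 402, 415 and 416 of 15679 genes and, in males, 49 of 15779. In females, chosen after seeing the data, 1 member (Foxf2) passed on loss of Kat6a, 2 (Foxf1, Foxf2) in null transgenic embryos vs. wild type and 2 vs. transgenic, and 1 (Foxf1) between both null genotypes. In the same order, 902, 1520, 1073 and 1201 of 15686 genes were called in these female comparisons. When each embryo was left out in turn, 0 to 1 member passed between both null genotypes (1 without transgenic replicate 3) and 0 to 1 in null transgenic vs. transgenic embryos (0 without null transgenic replicates 1 or 3). Without transgenic replicate 3, 1243 of 15789 genes were called between both null genotypes. Without null transgenic replicates 1 and 3 in turn, 241 of 15798 and 197 of 15804 were called vs. transgenic. The cause of these shifts was not tested.

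Some log2 fold changes changed sign, among them, in females, 3 further from 0: Foxd1 in null transgenic embryos vs. wild type (-0.17 in all embryos), Foxd2 vs. transgenic (-0.18) and Foxf1 with the transgene alone (-0.15). In females these were Foxd1 on loss of Kat6a (0.014), in null transgenic embryos vs. wild type (0.035) and between both null genotypes (0.02), and Foxf2 between the latter (-0.048). With the transgene alone they were Foxc1 (-0.037), Foxf1 (0.036) and Foxf2 (-0.074), and vs. transgenic they were Foxc1 (0.053) and Foxd2 (0.047). Foxd2 in null transgenic embryos vs. wild type was -0.058 in males and -0.007 with at least 10 counts in every embryo. Foxf2 with the transgene alone was -0.015 with litter as a block. Leaving out embryos gave, in null transgenic embryos vs. wild type, -0.014 to 0.08 for Foxc1, -0.005 to 0.067 for Foxd2 and 0.00 to 0.212 for Foxf1. It gave -0.003 to 0.073 for Foxf2 and -0.278 to 0.028 for Foxf1 with the transgene alone, and -0.029 to 0.153 for Foxf2 between both null genotypes.

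Deviations of embryos with the same replicate number had correlations of -0.255 to 0.215, 10 of 24 over 0.1. They were 0.0343 to 0.19 between transgenic and null transgenic embryos, which share sex at each number. Between wild-type and null embryos, which differ in sex at each number, they were -0.129 to -0.00583. These correlations therefore cannot settle whether the numbers pair embryos. A replicate block gave -0.006 for Foxc2 between both null genotypes and called 260 genes on loss of Kat6a, against 295 without the block, 286 against 535 in null transgenic vs. transgenic embryos and 12 against 22 with the transgene alone. Foxc2, whose low level chose the set, ranged over the alternatives from -0.387 to -0.156 on loss of Kat6a and from -0.354 to -0.025 in null transgenic embryos vs. wild type, which is a description and no sign of stability. On loss of Kat6a DESeq2 called 4 of 16 splanchnic and 4 of 17 head mesenchyme genes, against 1 each. Of the other named genes, Foxe1 and Foxd3 on loss of Kat6a passed in 5 and 11 of 29 alternatives. Sall1, Pax2, Dlx2 and Foxl2 passed there in 4, 6, 8 and 14 of 29. The sign of Sall1 was the same in 28 of the 29. With 4 embryos per genotype, values of Foxd2 and Foxf2 rest on the fewest counts.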
